A study of Mus musculus with 8 samples.

Results

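The ephrin, semaphorin, netrin and Slit families are the classical ligands of axon guidance, and with their Eph, plexin, UNC5 and ROBO receptors they also steer the growth and branching of blood vessels. Within these families members were taken by a match of symbol: the ephrins Efna1 to Efna5 and Efnb1 to Efnb3, every Epha and Ephb receptor, the semaphorins of classes 2 to 7, the plexins, the netrins Ntn1, Ntn3, Ntn4 and Ntn5, Unc5a to Unc5d, Slit1 to Slit3 and Robo1 to Robo4. This gave 66 of the 55401 gene identifiers in the count table. They were 8 ephrin ligands, 14 Eph receptors, 20 semaphorins, 9 plexins, 4 netrins, 4 UNC5 receptors, 3 Slit ligands and 4 ROBO receptors. Of these, 48 had at least 1 CPM (read counts scaled to the library's total) in at least 2 libraries and are described, as did 14399 genes of the whole table. The other 18 were Efna3, Epha1, Epha3, Epha4, Epha5, Epha6, Epha7, Epha8, Epha10, Sema4a, Sema4f, Sema5b, Plxnb3, Ntn5, Unc5c, Unc5d, Slit1 and Slit3. A filter on low counts left 63 of the 66 in the tests, without Epha3, Epha6 and Ntn5.

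Epithelioid hemangioendothelioma (EHE) is a vascular sarcoma, and most human cases carry a gene fusion that joins WWTR1, a co-activator of TEAD transcription factors, to CAMTA1. The RNA was taken from 3 mouse lines of this tumour. Libraries of polyadenylated RNA were made from EHE6 (n = 3), EHE17 (n = 3) and EHE26 (n = 2). The labels give the line and a replicate number and name no genotype, treatment, time or passage, so the lines were compared in pairs. Whether replicates of a line were grown separately is not in the labels, and the p-values therefore cover only the spread between these libraries, which may be technical.

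Ephrins are held in the membrane and bind Eph receptor tyrosine kinases on a neighbouring cell, with signals into both cells. Class 3 semaphorins are secreted and act through plexins, in most cases with a neuropilin as co-receptor, while the other vertebrate classes are mostly membrane proteins that bind plexins directly. Netrins are laminin-like secreted proteins read by UNC5 receptors, DCC and neogenin, and Slits are secreted ligands of ROBO receptors. In endothelium, ephrin-B2 and EphB4 mark arterial and venous cells, plexin-D1 receives semaphorin signals that restrain sprouting, UNC5B is a receptor of vessel tips, and ROBO4 is a ROBO receptor found mainly in endothelial cells.

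Library totals ran from 44620965 to 96237665 reads, and levels are CPM after TMM scaling, with the SD over a line's libraries beside each printed mean. The libraries fell into 2 sets that the labels do not name. The first principal component, with 56.2% of the variance of log2 CPM, set EHE6 replicates 1 and 2 and EHE17 replicates 1 and 2 (the first set, scores -122 to -103) apart from EHE6 replicate 3 (128) and the EHE26 libraries (126 and 148), with EHE17 replicate 3 between them (41.7). These last 4 are called the second set. Both EHE26 libraries belong to it, so that EHE26 and the set cannot be told apart in a comparison without the set as a term. All 8 libraries had reads of the endothelial markers, at uneven levels. Pecam1, the most even of them, was at 1179 to 1675 CPM. In EHE6 replicates 1 to 3, Kdr was at 829, 1042 and 22.1 CPM and Emcn at 438, 377 and 10.1. Tie1 was at 1219 and 1258 CPM in EHE6 replicates 1 and 2 and 37.3 in EHE26 replicate 2. The 8 endothelial genes, with Pecam1 and Cdh5 the larger part, summed to 9334 and 10917 CPM in EHE6 replicates 1 and 2 and 2560 in EHE6 replicate 3. Their sum was 5651 to 8644 in EHE17 and 3717 and 4726 in EHE26. Of 7 neural and glial markers, which matter here because neurons and glia use the same guidance genes, 6 reached 1 CPM in 2 libraries. Their sum was 16.0 to 40.4 CPM in EHE6 and EHE17 and 109 and 177 in EHE26, where Tubb3 alone gave 102 and 174. The neuronal Rbfox3 was at 1.63 to 2.63 CPM in the first set and 0 to 0.0401 in the second, the glial Gfap at 2.01 to 8.81 and 0.0602 to 0.219, and the epithelial Epcam at 3.89 to 9.79 and 0 to 0.0368. The 4 epithelial markers together were at 18.9 to 34.9 CPM in the first set and 0.803 to 89.6 in the second, and of 4 leukocyte markers, summing to 2.33 to 30.3 CPM, Cd3e had at most 0.0269. The 4 lymphatic endothelial markers summed to 2359 to 3725 CPM in EHE17, 85.5 to 685 in EHE6 and 244 and 329 in EHE26. The 7 mural and stromal markers summed to 10.1 to 70.6 CPM in EHE17, 294 to 679 in EHE6 and 218 and 238 in EHE26. They moved in opposite ways within EHE6. In its replicates 1 to 3, Acta2 was at 659, 268 and 15.1 CPM, Pdgfra at 3.87, 5.21 and 252, and Rgs5 at 8.23, 9.92 and 183. Pdgfrb and Cspg4 were also highest in EHE6 replicate 3, while Col1a1 and Des were lowest there. The part of these other cell types in the values below was not tested, and in such bulk libraries fewer cells of a type cannot be told apart from less RNA per cell.

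No guidance gene passed the test between any pair of lines. A gene was called where edgeR's quasi-likelihood test on all 8 libraries gave an adjusted p below 0.05 and the log2 fold change reached 1 in size. By this rule 0 of 63 members were called for EHE17 against EHE6, where 0.143% of all 18882 tested genes were called. The count was also 0 for EHE26 against EHE6, beside 1.26% of all genes, and 0 for EHE26 against EHE17, beside 1.08%. At an unadjusted p under 0.05 there were 6, 22 and 29 members in the same order of comparisons, of which 6, 19 and 22 were among the 48 described. As shares of the described members these are 12.5%, 39.6% and 45.8%, against 6.90%, 15.9% and 16.6% of all tested genes. The median log2 fold change of the described members was -0.03, -0.42 and -0.75, against -0.03, -0.11 and -0.11 over all genes. With the set as a term these medians were 0.36, 0.0008 and -0.30, against -0.0065, -0.013 and 0.0041 over all genes, and within the second set alone 0.049, 0.040 and -0.032. For EHE17 against EHE6 the median was also above 0 with the replicate block (0.38) and without EHE6 replicate 2 (0.33), so its sign was not stable.

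The number of calls moved with single libraries and with the fit. Without EHE6 replicate 3 edgeR called 1, 17 and 18 members in the 3 comparisons, where 0.281%, 8.61% and 7.47% of all genes were called. Without the replicates 3 of both EHE6 and EHE17, a choice made after the data were seen, it called 2, 33 and 37, with 0.779%, 22.4% and 21.7% of all genes, which leaves EHE26 to be compared with first-set libraries alone. With both line and set in the model it called 0, 3 and 4 members, beside 0.540%, 1.89% and 1.69% of all genes. The set was read from these same expression values. In that fit EHE26 is compared through EHE6 replicate 3 and EHE17 replicate 3, with a set effect taken as equal in the lines. Its p-values, here and below, are therefore descriptive. DESeq2 called 2, 17 and 20 members, beside 1.96%, 8.47% and 8.49%. Without the filter on low counts edgeR called 1, 5 and 7, beside 0.453%, 1.75% and 2.38%, and within the second set alone 6, 5 and 10, beside 4.17%, 3.18% and 4.39%. In that last fit EHE6 and EHE17 have 1 library each, so that the spread comes from the EHE26 libraries with 1 residual degree of freedom, and its calls of single members are not used below. With the replicate number as a block, edgeR called 0, 11 and 16 members, beside 0.175%, 7.73% and 9.85%. EHE26 has no replicate 3, so that fit too compares EHE26 mainly with first-set libraries. 

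The calls of DESeq2 were Sema3b (higher) and Plxnc1 (lower) in EHE17 against EHE6. In EHE26 against EHE6 it called Efna5, Slit2, Ephb6, Sema3c and Unc5b higher and Ephb1, Robo1, Sema3g, Sema6a, Ephb2, Plxnc1, Ntn1, Robo3 and Plxnd1 lower, with Epha8, Slit3 and Plxnb3 of the members not described. Relative to EHE17 it called Sema3c and Efnb1 higher in EHE26 and Ephb1, Robo1, Ephb2, Sema6a, Sema7a, Robo3, Sema4d, Sema3b, Ntn1, Plxnd1, Sema4g, Plxna2 and Sema6b lower, with Epha7, Epha8, Slit3, Plxnb3 and Sema4f of those not described. Epha8 reached 1 CPM only in EHE17 replicate 2, at 2.48 CPM. Without the filter edgeR called Sema3b higher in EHE17 than in EHE6. The same fit called Ephb6 higher and Ephb1, Robo1, Ntn1 and Robo3 lower in EHE26 than in EHE6, and Sema3c higher and Ephb1, Robo1, Ephb2, Robo3, Sema3b and Plxna2 lower in EHE26 than in EHE17. With the set as a term it called Robo2 and Slit2 higher and Ntn1 lower in EHE26 than in EHE6, and Robo2 and Efnb1 higher and Ntn1 and Sema3b lower in EHE26 than in EHE17. Ntn1 was thus called by all 3 of these fits in EHE26 against EHE6, and Sema3b in EHE26 against EHE17. These fits share the same libraries and the set was read from them, so the repeated calls are not independent support.

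**Figure D1:**
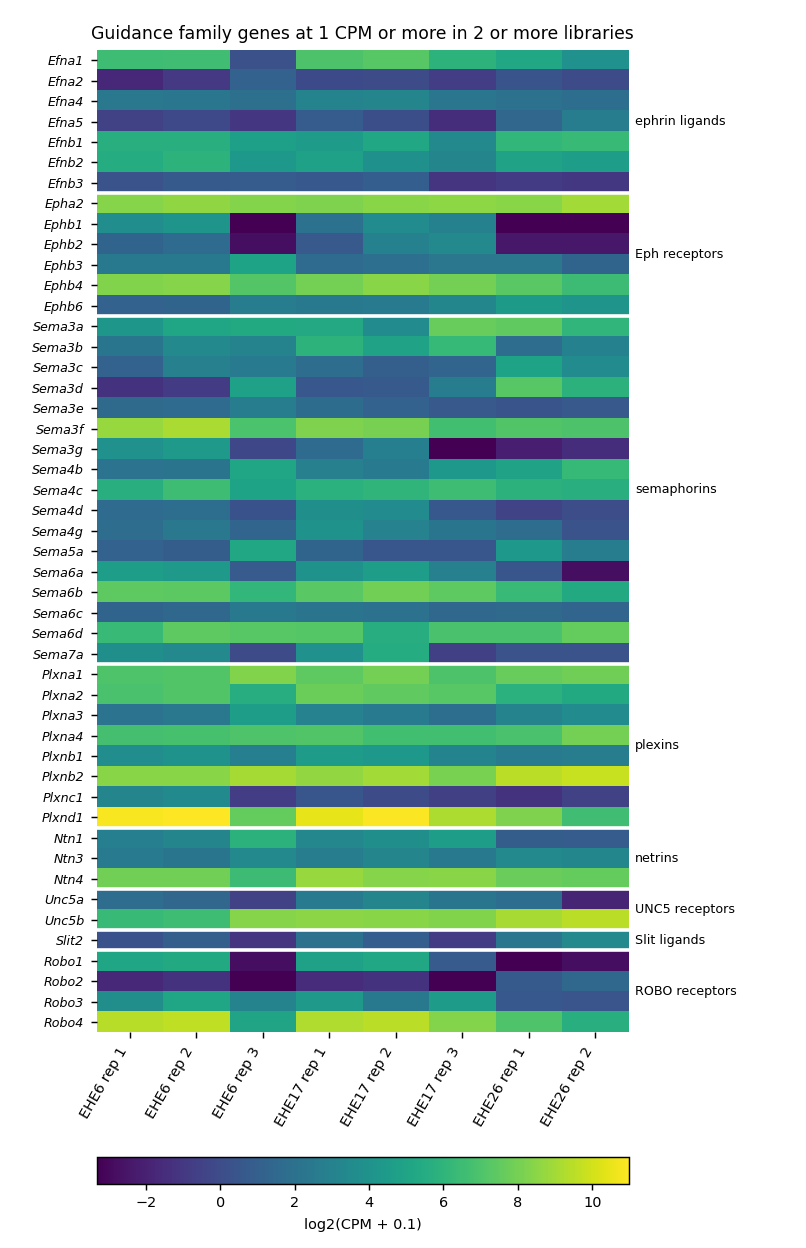
Levels of the 48 described members in the 8 libraries, as log2(CPM + 0.1) on the colour scale, with members in rows by family and libraries in columns by line and replicate. Plxnd1 and Robo4 are among the brightest rows in EHE6 replicates 1 and 2 and in EHE17, and are dimmer in EHE6 replicate 3 and both EHE26 libraries, while Epha2 is even across the row (292 to 515 CPM).

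Among the ephrin ligands, the A-type Efna1 (chr3:89271733-89281142, GRCm38, minus strand), a ligand of EphA2 that is widely present in endothelium, carried most transcripts per length in 5 libraries. Levels per length are CPM per kilobase of exon (RPKM). Efna1 stood at 50.7 and 52.0 RPKM in EHE6 replicates 1 and 2 and at 32.7 to 84.6 in EHE17, which was 65.1% to 81.1% of the summed ephrin level. The B-type Efnb1 led in EHE6 replicate 3 (7.651 RPKM) and in EHE26 (20.5 and 23.5 RPKM), although in EHE26 replicate 1 Efna1 was close behind at 19.8 RPKM and came first when the longest transcript was taken as the length. Efna1 was read at 92.8, 95.1 and 1.05 CPM in EHE6 replicates 1 to 3, at 126, 155 and 59.8 CPM in EHE17, and at 36.3 and 14.7 CPM in EHE26. Its lowest library was thus EHE6 replicate 3, 89.45 times under the mean of the other two EHE6 libraries, and only EHE17 and EHE26 did not overlap. The log2 fold change of Efna1 was -2.15 ± 1.39 (SE) for EHE26 against EHE17 (edgeR, adjusted p = 0.452).

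Efnb1 (chrX:99136130-99148991, plus strand), a transmembrane ligand of EphB receptors, was at 52.6, 49.0 and 26.4 CPM in EHE6, 22.6, 36.3 and 10.4 CPM in EHE17, and 70.7 and 81.3 CPM in EHE26. Both EHE26 libraries lay above all 6 others. The log2 fold change against EHE17 was 1.72 ± 0.50, with an edgeR adjusted p of 0.169, and with a term for the set it was 2.67 ± 0.35 with an adjusted p of 0.0151. Efnb2, the arterial ligand, was at 46.8, 61.7 and 19.7 CPM in EHE6, 29.4, 14.1 and 8.95 in EHE17, and 30.6 and 24.7 in EHE26. The 3 lines overlapped, with log2 differences from -1.29 to 0.66 and edgeR adjusted p from 0.587 to 0.694. The other described ephrins were low: Efna4 was at 3.55 to 9.08 CPM, Efna5 at 0.261 to 6.56, Efna2 at 0.216 to 2.14 and Efnb3 at 0.341 to 1.87. Of these, Efna5 was in both EHE26 libraries (2.56 and 6.56 CPM) above all 6 others, with a log2 fold change of 2.94 ± 0.84 against EHE6 (edgeR adjusted p = 0.179). Outside EHE26 it reached 1 CPM only in EHE17 replicate 1, so it is described only through EHE26. Efnb3 in EHE26 (0.395 and 0.460 CPM) was below all 3 EHE6 libraries.

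Among the Eph receptors, Epha2 (chr4:141301240-141329384, plus strand), the receptor of ephrin-A1 in endothelial and epithelial cells, led per length in all 8 libraries at 62.4 to 110 RPKM. It was at 331, 387 and 322 CPM in EHE6, 292, 353 and 375 CPM in EHE17, and 341 and 515 CPM in EHE26. Its highest library was 1.76 times its lowest, the smallest such ratio among the described members. The log2 differences between lines were -0.03, 0.31 and 0.33, each with an SE of 0.24 to 0.27 (edgeR adjusted p from 0.549 to 1.0).

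Ephb4 (chr5:137350109-137378669, plus strand), the venous receptor of ephrin-B2, came next to Epha2 in each library, at 19.5 to 74.3 RPKM. It was at 306, 330 and 141 CPM in EHE6, 250, 345 and 251 CPM in EHE17, and 158 and 90.5 CPM in EHE26. EHE26 lay below EHE17 without overlap, and below 2 of the 3 EHE6 libraries. On the log2 scale the difference was -1.18 ± 0.44 against EHE17 and -1.06 ± 0.43 against EHE6, with edgeR adjusted p of 0.252 and 0.306. Ephb4 shares bases on the other strand with Zan, which had 100 reads over all libraries against 129371 for Ephb4.

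Ephb1 (chr9:101922128-102354693, minus strand), a receptor of the B-type ephrins, had reads in some libraries and none in others. It was at 12.7 and 16.8 CPM in EHE6 replicates 1 and 2 and at 0 in replicate 3, at 4.14, 12.01 and 7.78 CPM in EHE17, and at 0 in both EHE26 libraries. Taking 3 counts over the line as the floor for a gene with no read, the mean of EHE6 was at least 327-fold higher than EHE26 and that of EHE17 at least 266-fold higher. Floors and intervals cover counting error only. In EHE6 replicate 3 Ephb1 was at least 234-fold lower than in the other two EHE6 libraries. The edgeR adjusted p was 0.198 for EHE26 against EHE6 and 0.189 against EHE17.

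Ephb2, its close relative, was at 2.33, 3.05 and 0.0420 CPM in EHE6, 1.48, 7.55 and 10.4 CPM in EHE17, and 0.0920 and 0.0877 CPM in EHE26. The low libraries were the same 3 as for Ephb1, and in EHE6 replicate 3 the level rested on 2 reads, so that replicates 1 and 2 were 64.0 times higher with a 95% exact Poisson interval from 17.7 to 529. Relative to EHE6, the log2 fold change of Ephb2 was 1.84 ± 1.19 in EHE17 and -4.30 ± 1.64 in EHE26, and relative to EHE17 it was -6.14 ± 1.78 in EHE26 (edgeR adjusted p = 0.924, 0.286 and 0.168). Ephb3 was at 31.8 CPM in EHE6 replicate 3 and at 2.32 to 5.47 CPM in the other 7 libraries. All EHE17 and all EHE26 libraries were below the 3 of EHE6 for Ephb3, with log2 fold changes of -1.85 ± 0.76 and -1.96 ± 0.88 (edgeR adjusted p = 0.690 and 0.324). Ephb6, whose protein lacks kinase activity, was at 2.196, 2.343 and 6.408 CPM in EHE6, 5.44, 6.05 and 9.41 CPM in EHE17, and 22.4 and 16.7 CPM in EHE26. EHE26 was above the 6 other libraries for Ephb6, at a log2 fold change of 2.42 ± 0.55 against EHE6 with an edgeR adjusted p of 0.101. DESeq2 called that difference at 2.41 ± 0.60 with an adjusted p of 0.00189, and without EHE6 replicate 3 edgeR called it at 3.11 ± 0.42 (adjusted p = 0.0073).

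Among the semaphorins, the secreted Sema3f and the membrane-bound Sema6b carried most transcripts per length. Sema3f, a ligand of neuropilin-2 that repels endothelial and tumour cells, led in 6 libraries at 23.4 to 110 RPKM, and Sema6b led in EHE17 replicates 2 and 3 at 62.3 and 42.8 RPKM. In EHE17 replicate 2 Sema3f came first when the longest transcript was taken as the length. Sema3f was at 429, 572 and 122 CPM in EHE6, 296, 261 and 98.7 CPM in EHE17, and 138 and 125 CPM in EHE26. The 4 libraries of the first set were all above the 4 of the second. Against EHE6 the log2 fold change of Sema3f was -0.78 ± 0.58 in EHE17 and -1.51 ± 0.69 in EHE26, with edgeR adjusted p of 0.967 and 0.325. Sema6b was at 41.6 to 247 CPM, and EHE26 (82.0 and 41.6 CPM) lay below the 3 EHE17 libraries.

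Sema3b (chr9:107597674-107609229, minus strand), a secreted semaphorin that acts through neuropilins, set EHE17 apart. It was at 4.53, 10.5 and 8.22 CPM in EHE6, 59.9, 29.7 and 75.6 CPM in EHE17, and 3.403 and 7.786 CPM in EHE26. The 3 EHE17 libraries were above the 5 others, and the first and second sets did not divide them. Against EHE6 the log2 fold change was 2.83 ± 0.51 with an edgeR adjusted p of 0.132, and EHE26 against EHE17 gave -3.30 ± 0.62 with an adjusted p of 0.0587. DESeq2 called both (adjusted p = 7.35e-05 and 7.45e-06), and so did edgeR without the filter on low counts (adjusted p = 0.0110 and 0.00459). With the set as a term edgeR called EHE26 against EHE17 at -3.57 ± 0.64 (adjusted p = 0.0429), while EHE17 against EHE6 stayed at 2.79 ± 0.49 with an adjusted p of 0.0641.

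Sema3c and Sema3d, secreted semaphorins with roles in the heart's outflow tract and its veins, were highest in EHE26. Sema3c was at 2.13, 7.49 and 5.86 CPM in EHE6, 3.34, 1.88 and 2.39 CPM in EHE17, and 30.9 and 11.9 CPM in EHE26, with a log2 fold change of 3.07 ± 0.63 against EHE17 (edgeR adjusted p = 0.0743; 0.000222 with DESeq2). Sema3d (chr5:12383385-12588948, plus strand) was at 0.323, 0.480 and 28.5 CPM in EHE6, 1.38, 1.53 and 6.22 CPM in EHE17, and 155 and 58.8 CPM in EHE26. EHE26 was above the 6 other libraries for both genes, and for Sema3d the libraries of the second set were all above those of the first. Sema3d differed by 5.14 ± 1.81 on the log2 scale from EHE17 and by 3.45 ± 1.70 from EHE6 (edgeR adjusted p = 0.234 and 0.352). For EHE17 against EHE6 it was -1.69 ± 1.52, and it turned to 2.91 when EHE6 replicate 3 was left out.

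Of the other class 3 semaphorins, Sema3a, a repellent that signals through neuropilin-1, was at 18.8, 35 and 41.7 CPM in EHE6, 38.8, 11.8 and 201 CPM in EHE17, and 180 and 67.9 CPM in EHE26. EHE17 replicate 3 alone made the difference between EHE17 and EHE6, a log2 fold change of 1.40 ± 0.92 (edgeR adjusted p = 0.929) that became -0.33 without it. Sema3g, which is known as an arterial endothelial semaphorin, was at 14.7, 21.2 and 0.756 CPM in EHE6, 3.16, 7.17 and 0 CPM in EHE17, and 0.129 and 0.263 CPM in EHE26. The second set was below the first in every library, and EHE26 below EHE6 at a log2 fold change of -5.96 ± 2.35 (edgeR adjusted p = 0.296). For EHE26 against EHE17 it was -4.13 ± 2.15 (adjusted p = 0.360 by edgeR), and with the set as a term it turned to 1.18. Sema3e, a direct ligand of plexin-D1, was low throughout, at 2.95, 3.12 and 6.24 CPM in EHE6, 3.24, 2.18 and 1.48 CPM in EHE17, and 1.23 and 1.49 CPM in EHE26, and its log2 fold change for EHE26 against EHE6 was -1.59 ± 0.60 (edgeR adjusted p = 0.281).

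The class 4 to 7 semaphorins spread in several ways. Sema4b was at 4.19, 4.45 and 35.1 CPM in EHE6, 7.32, 5.83 and 19.5 CPM in EHE17, and 30.4 and 76.1 CPM in EHE26, with the second set above the first in every library and a log2 fold change of 2.29 ± 1.0 for EHE26 against EHE17 (edgeR adjusted p = 0.302). Sema4d, a ligand of plexin-B1 that promotes vessel growth, was at 3.04, 3.43 and 1.09 CPM in EHE6, 14.0, 11.95 and 1.44 CPM in EHE17, and 0.662 and 0.921 CPM in EHE26. It was lower in every library of the second set than in those of the first, and its largest log2 difference was -3.53 ± 1.04 for EHE26 against EHE17 (edgeR adjusted p = 0.171), beside 1.85 ± 0.81 for EHE17 against EHE6 (adjusted p = 0.728). Sema4c, at 30.8 to 93.2 CPM, overlapped between all lines, and so did Sema6c (2.33 to 5.40 CPM) and Sema6d (48.3 to 194 CPM). Sema4g was at 3.403 and 1.184 CPM in EHE26 and below the 3 EHE17 libraries, which were at 4.67 to 16.4 CPM. Sema5a was at 38.7 CPM in EHE6 replicate 3 and at 19.4 and 6.43 CPM in EHE26, against 1.30 to 2.30 CPM in the other 5 libraries, so that EHE17 lay below EHE26 and the EHE6 libraries split. Its log2 fold change was -3.11 ± 1.20 for EHE17 against EHE6 and 2.97 ± 1.26 for EHE26 against EHE17 (edgeR adjusted p = 0.653 and 0.295).

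Sema6a, a transmembrane ligand of plexin-A2 and plexin-A4, was at 26.2, 21.3 and 1.62 CPM in EHE6, 16.1, 24.7 and 7.34 CPM in EHE17, and 1.31 and 0.0439 CPM in EHE26. EHE26 was below the other lines without overlap, with log2 fold changes of -4.58 ± 1.57 against EHE6 and -4.55 ± 1.57 against EHE17 (edgeR adjusted p = 0.250 and 0.226; DESeq2 0.00283 and 0.00309). Sema7a, a membrane-anchored semaphorin that binds plexin-C1 and integrins, was at 13.9, 10.3 and 0.882 CPM in EHE6, 15.0, 45.4 and 0.562 CPM in EHE17, and 1.14 and 1.18 CPM in EHE26. All 4 second-set libraries of Sema7a were below the first set, and the log2 difference of EHE26 from EHE17 was -4.13 ± 1.74 (edgeR adjusted p = 0.293).

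Among the plexins, the leading receptor differed between libraries. Plxnd1 (chr6:115954811-115995005, minus strand), the endothelial receptor of Sema3e, led in EHE6 replicates 1 and 2 at 248 and 276 RPKM, and in EHE17 at 193, 261 and 81.4 RPKM. It held 55.2% to 77.7% of the summed plexin level there, and by mean RPKM it ranked first of all 48 members in EHE6 and in EHE17. In EHE6 replicate 3 and in EHE26 the leader was Plxnb2 (chr15:89155549-89180788, minus strand), a receptor of class 4 semaphorins and of angiogenin, at 68.7, 94.8 and 113 RPKM, where Plxnd1 was at 26.1, 41.4 and 13.3 RPKM. The same gene led in all 8 libraries when the longest transcript was used as the length. These mean ranks hide a wide spread. In EHE6 Plxnd1 (184 ± 137 RPKM) was within its SD of Robo4 (94.5 ± 77.0) and Epha2 (74.1 ± 7.55). In EHE17 Plxnd1 (179 ± 90.7) was within its SD of Robo4 (106 ± 39.9) and Ntn4 (100.04 ± 16.3), and in EHE17 replicate 3 Ntn4 (91.0 RPKM) was above Plxnd1. In EHE26 Plxnb2 (104 ± 12.9), Unc5b (102 ± 20.6) and Epha2 (91.6 ± 26.2) led within an SD of each other.

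**Figure D2:**
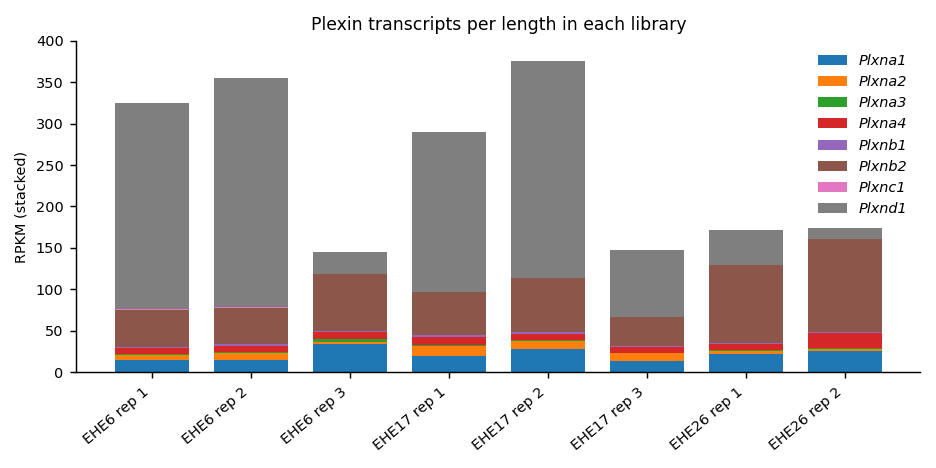
Stacked bars of the 8 described plexins in each library, in RPKM (CPM per kilobase of exon). Plxnd1 is the largest share in EHE6 replicates 1 and 2 and in the 3 EHE17 libraries (81.4 to 276 RPKM), and Plxnb2 in EHE6 replicate 3 and both EHE26 libraries (68.7 to 113 RPKM).

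In CPM, Plxnd1 was at 1813, 2017 and 191 in EHE6, 1410, 1906 and 594 in EHE17, and 302 and 97.3 in EHE26. The 4 libraries of the first set were all above the 4 of the second, and in EHE6 replicate 3 the level was 10.04 times under the mean of the other two. For Plxnd1 the log2 fold change was -2.75 ± 1.04 for EHE26 against EHE6 and -2.71 ± 1.04 against EHE17 (edgeR adjusted p = 0.284 and 0.263). Without EHE6 replicate 3 edgeR called both, at -3.26 ± 0.70 and -2.71 ± 0.65 (adjusted p = 0.0323 and 0.0490). With the set as a term it called neither, at -0.69 ± 0.71 and -1.08 ± 0.64. Plxnb2 was at 341, 341 and 530 CPM in EHE6, 405, 511 and 270 CPM in EHE17, and 731 and 872 CPM in EHE26. Both EHE26 libraries of Plxnb2 were above all others, at log2 fold changes of 0.99 ± 0.34 and 1.02 ± 0.34 against EHE6 and EHE17 (edgeR adjusted p = 0.254 and 0.218).

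Of the A plexins, which pair with neuropilins to receive class 3 semaphorins, Plxna2 was at 115, 136 and 47.6 CPM in EHE6, 217, 179 and 154 CPM in EHE17, and 56.3 and 41.3 CPM in EHE26. EHE17 was above all other libraries, and EHE26 against EHE17 gave a log2 fold change of -1.91 ± 0.46 (edgeR adjusted p = 0.112). That difference of Plxna2 was called by DESeq2 (adjusted p = 0.0071) and by edgeR without EHE6 replicate 3 (adjusted p = 0.00771). Plxna1 (124 to 305 CPM) and Plxna4 (99.6 to 252 CPM) overlapped between all lines, with log2 differences of at most 0.72. Plxna3 was at 25.8 CPM in EHE6 replicate 3 and at 3.55 to 12.1 CPM in the other 7 libraries.

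Plxnb1, the receptor of Sema4d, was at 13.0, 16.1 and 7.12 CPM in EHE6, 22.5, 19.3 and 8.63 CPM in EHE17, and 5.81 and 6.65 CPM in EHE26, with EHE26 the lowest. Plxnc1, the receptor of Sema7a, was at 9.05, 11.5 and 0.504 CPM in EHE6, 1.30, 0.897 and 0.542 CPM in EHE17, and 0.331 and 0.592 CPM in EHE26. Its only libraries above 2 CPM were EHE6 replicates 1 and 2, and EHE17 against EHE6 gave a log2 fold change of -2.93 ± 1.0 (edgeR adjusted p = 0.559; DESeq2 0.0461). Within the first set the difference of Plxnc1 was called at -3.21 ± 0.39 (edgeR adjusted p = 0.0391), where 0.540% of all genes were called. Within the second set, which has 1 library of each of these lines, it was 0.10.

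**Figure D3:**
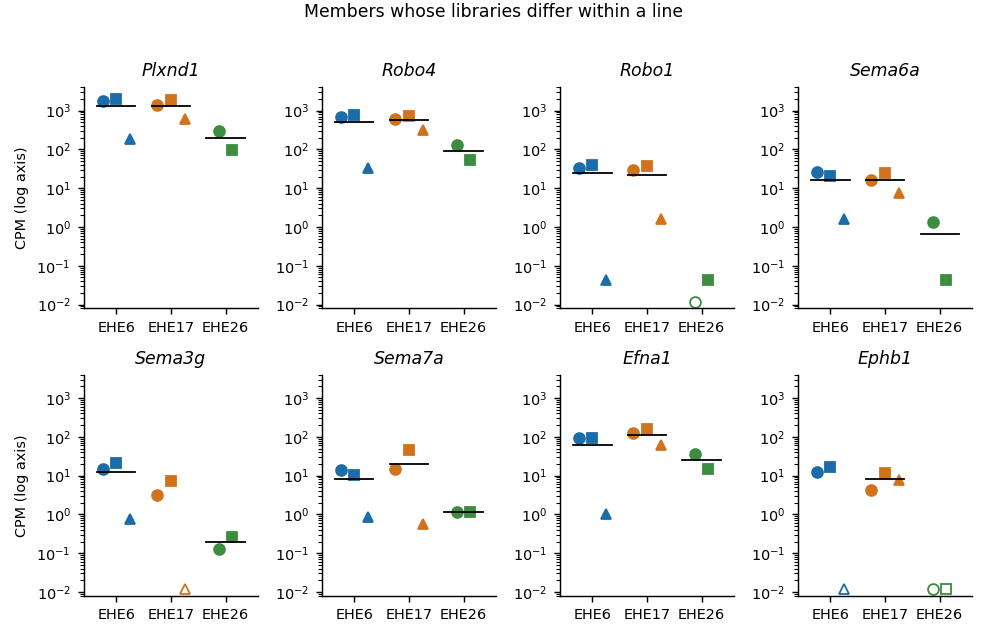
CPM on a log axis in each library for Plxnd1, Robo4, Robo1, Sema6a, Sema3g, Sema7a, Efna1 and Ephb1, with lines on the horizontal axis, circles for replicate 1, squares for replicate 2, triangles for replicate 3 and a black bar for the mean where each library of a line had reads. Open symbols at 0.012 CPM mark libraries without a read, and the triangle of EHE6 lies below the circle and square of EHE6 in every panel.

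Among the netrins, Ntn4 (chr10:93640681-93747207, plus strand), a basement membrane netrin made by endothelial cells, was the leader in each library and held 67.8% to 97.6% of the summed netrin RPKM. It was at 246, 247 and 90.9 CPM in EHE6, 445, 338 and 341 CPM in EHE17, and 208 and 197 CPM in EHE26. EHE17 was above the 5 other libraries, at a log2 fold change of 0.94 ± 0.38 against EHE6 (edgeR adjusted p = 0.681), and EHE26 against EHE17 gave -0.89 ± 0.43 (adjusted p = 0.336).

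Ntn1 (chr11:68209364-68400823, minus strand), a secreted ligand of UNC5B, DCC and neogenin, was at 7.21, 9.10 and 59.1 CPM in EHE6, 9.89, 13.8 and 24.96 CPM in EHE17, and 1.78 and 1.69 CPM in EHE26. Both EHE26 libraries were below the 6 others, and replicate 3 was the highest in both EHE6 and EHE17. The log2 fold change of Ntn1 was -3.85 ± 1.05 for EHE26 against EHE6 and -3.22 ± 1.02 against EHE17, with edgeR adjusted p of 0.164 and 0.195. With the set, which was read from these same libraries, as a term edgeR called both, at -4.61 ± 0.56 and -4.57 ± 0.59 (adjusted p = 0.00928 and 0.0143). DESeq2 called both too (adjusted p = 0.000494 and 0.00593). Ntn3, at 4.53 to 10.7 CPM, lies on the same strand as Tbc1d24 and shares bases with it (3863 and 14444 reads in all), so its counts are uncertain.

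Among the netrin receptors, Unc5b (chr10:60762593-60831581, minus strand), a dependence receptor of endothelial tip cells, held 93.9% to 99.96% of the summed UNC5 RPKM. It was at 80.3, 91.4 and 332 CPM in EHE6, 365, 349 and 313 CPM in EHE17, and 545 and 727 CPM in EHE26. EHE26 was above all other libraries, and EHE6 replicate 3 was at the level of EHE17 while the other two EHE6 libraries were not. The log2 fold change of Unc5b was 1.03 ± 0.53 for EHE17 against EHE6 and 1.92 ± 0.58 for EHE26 against EHE6 (edgeR adjusted p = 0.812 and 0.196). Within the first set edgeR called EHE17 against EHE6 at 2.07 ± 0.26 (adjusted p = 0.0406). Within the second set, which has 1 library of each of these lines, the difference was -0.09. Unc5a was low, at 3.37, 2.53 and 0.588 CPM in EHE6, 6.14, 9.00 and 4.55 CPM in EHE17, and 3.48 and 0.175 CPM in EHE26. EHE17 was above the other libraries for Unc5a, with a log2 fold change of 1.60 ± 1.0 against EHE6 (edgeR adjusted p = 0.904).

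Among the Slit ligands only Slit2 (chr5:47983138-48307733, plus strand) was described, and it was low. It was at 1.10, 1.92 and 0.336 CPM in EHE6, 4.08, 1.80 and 0.461 CPM in EHE17, and 4.71 and 10.7 CPM in EHE26. The EHE26 libraries were the highest, with a log2 fold change of 2.78 ± 0.98 against EHE6 (edgeR adjusted p = 0.260). With the set as a term edgeR called it at 4.68 ± 0.76 (adjusted p = 0.0271). Slit3 had no read in EHE26 and EHE6 replicate 3 and at most 0.421 CPM elsewhere, which made EHE6 at least 8.399-fold and EHE17 at least 9.16-fold higher than EHE26 (edgeR adjusted p = 0.268 and 0.238).

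Among the ROBO receptors, Robo4 (chr9:37401897-37415115, plus strand) held 83.3% to 98.8% of the summed RPKM in each library. It was at 690, 780 and 32.8 CPM in EHE6, 627, 732 and 325 CPM in EHE17, and 129 and 52.7 CPM in EHE26. The first set was above the second in every library, and EHE6 replicate 3 was the lowest of the 8, 22.4 times under the mean of the other two EHE6 libraries. For Robo4 the log2 fold change was -2.46 ± 1.13 for EHE26 against EHE6 and -2.62 ± 1.14 against EHE17 (edgeR adjusted p = 0.330 and 0.302).

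Robo1 (chr16:72308306-73046095, plus strand), the broadly expressed Slit receptor, was at 33.5, 40.8 and 0.0420 CPM in EHE6, 28.7, 37.3 and 1.61 CPM in EHE17, and 0 and 0.0439 CPM in EHE26. Reads were thus nearly lacking in EHE26, with 2 in all, and in EHE6 replicate 3, with 2. The mean of EHE6 was 1239 times the pooled level of EHE26, which is those 2 reads over both libraries (0.0200 CPM), with a 95% exact Poisson interval from 343 to 10228, and that of EHE17 was 1128 times (312 to 9311). Within EHE6, the mean of replicates 1 and 2 of Robo1 was 884 times replicate 3 (245 to 7302). The edgeR adjusted p was 0.201 for EHE26 against EHE6 and 0.189 against EHE17, and DESeq2 called both (adjusted p = 0.000589 and 0.000735).

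Robo2 (chr16:73891839-74411825, minus strand), a Slit receptor of neurons and kidney, was low in all libraries and, unlike Robo1, highest in EHE26. It was at 0.216, 0.325 and 0 CPM in EHE6, 0.249, 0.321 and 0 CPM in EHE17, and 1.58 and 2.72 CPM in EHE26. EHE26 was above the 6 others, and the replicates 3 of EHE6 and EHE17 had no read. Robo2 had 1 CPM in the EHE26 libraries alone and is described only through them. Its log2 fold change was 3.54 ± 1.57 against EHE6 and 3.46 ± 1.56 against EHE17 (edgeR adjusted p = 0.321 and 0.311). With the set as a term edgeR called both (adjusted p = 0.0128 and 0.0166). As Robo2 is described only through EHE26, these values are no separate support for a higher level there. Robo3, a divergent family member that reads signals at the neural midline, was at 13.1, 33.7 and 8.45 CPM in EHE6, 20.8, 5.34 and 23.0 CPM in EHE17, and 1.42 and 1.27 CPM in EHE26. EHE26 was the lowest without overlap, with log2 fold changes of -3.77 ± 0.87 and -3.60 ± 0.86 (edgeR adjusted p = 0.104 and 0.11). DESeq2 called both (adjusted p = 5.67e-05 and 0.000156), and with the set as a term edgeR called neither.

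**Figure D4:**
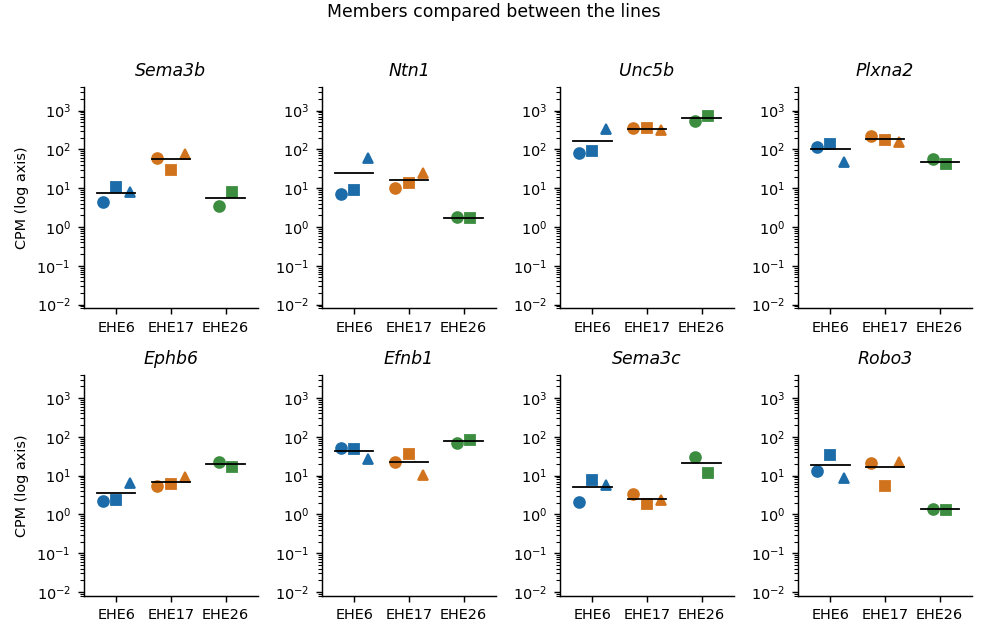
CPM on a log axis in each library for Sema3b, Ntn1, Unc5b, Plxna2, Ephb6, Efnb1, Sema3c and Robo3, with lines on the horizontal axis, circles, squares and triangles for replicates 1, 2 and 3 and a black bar for the mean. The EHE17 libraries of Sema3b are above all others, and the EHE26 libraries are above all others for Unc5b, Ephb6, Efnb1 and Sema3c and below all others for Ntn1 and Robo3.

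Counted over the 48 described members, libraries that did not overlap were most frequent between EHE26 and EHE17. There 13 members were higher in every EHE26 library, 27.1% of the described beside 18.7% of all tested genes, and 19 were lower, 39.6% beside 20.3%. Among genes at the same minimum level these background shares were 21.3% and 20.0%. The 19 lower members were the receptors Ephb1, Ephb2, Ephb4, Plxna2, Plxnb1, Plxnd1, Unc5a, Robo1, Robo3 and Robo4 and the ligands Efna1, Efna4, Sema3b, Sema4d, Sema4g, Sema6a, Sema6b, Ntn1 and Ntn4. Between EHE26 and EHE6, 10 members were higher (20.8% beside 16.0%) and 9 lower (18.8% beside 15.3%). Here the background shares at the same minimum level were 18.4% and 15.1%. Between EHE17 and EHE6, Sema3b, Plxna2, Ntn4 and Unc5a were higher (8.33% beside 7.25%) and Ephb3 alone lower (2.08% beside 4.94%), shares near the background. The comparisons share libraries, so these counts are not independent of each other. In EHE26, 9 members (Efna5, Efnb1, Ephb6, Sema3c, Sema3d, Plxnb2, Unc5b, Slit2 and Robo2, 18.8% beside 9.88%) were higher than in every library of both other lines, and 5 (Sema4d, Sema6a, Plxnb1, Ntn1 and Robo3, 10.4% beside 7.81%) were lower. At the same minimum level the background shares of this pattern were 11.3% and 7.76%. Robo2 counts among the 13, the 10 and the 9 because it passed the level of 1 CPM in EHE26 alone, so its place there was fixed by that filter. Efna5, in the same counts, reached that level outside EHE26 only in EHE17 replicate 1, so it too is described only through EHE26. Of the lower members, Ephb1, Ephb2, Robo1 and Sema4d among the 19 reached 1 CPM in no EHE26 library. The same holds for Efnb3, Sema3g and Sema4d among the 9 and for Sema4d among the 5. These passed that level only through the lines where they were high, so the lower counts are not free of the filter.

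**Figure D5:**
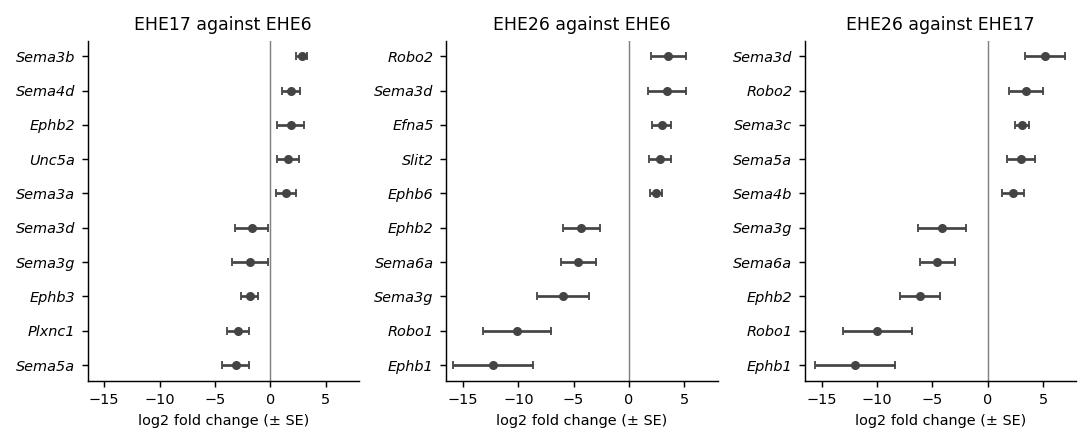
Log2 fold changes with SE bars (edgeR, all 8 libraries) of the 5 higher and 5 lower members with the widest differences in each of the 3 comparisons, among members whose higher line has a mean of at least 1 CPM. None passed the test, and the fitted values of Ephb1 against EHE26, which had no read, and of Robo1, with 2 reads there, depend on the prior of the fit.

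Within EHE6 and EHE17, replicate 3 stood apart from replicates 1 and 2 for most members. For 20 of 48 (41.7%, beside 28.3% of all tested genes and 25.3% of those at the same minimum level) replicate 3 was below both others in both lines. These were Efna1, Efna4, Efna5, Efnb1, Efnb2, Sema3f, Sema3g, Sema4d, Sema4g, Sema6a, Sema7a, Plxna2, Plxnb1, Plxnc1, Plxnd1, Unc5a, Slit2, Robo1, Robo2 and Robo4. Sema3g and Plxnc1 reached 1 CPM in no replicate 3 and no EHE26 library, so their place among the 20 is not free of that filter. For 6 (12.5%, beside 18.6%), Ephb3, Ephb6, Sema3a, Sema3d, Sema4b and Ntn1, replicate 3 was above both others in both lines. A further 11 (22.9%, beside 7.76%) were above in EHE6 and below in EHE17, among them Unc5b, Plxnb2, Plxna1 and Sema5a, and 4 (8.33%, beside 8.02%), Epha2, Ephb2, Sema4c and Robo3, went the other way. For the 6, the 11 and the 4, the background shares at the same minimum level were 21.8%, 7.83% and 8.15%. The sum of the endothelial markers, at 2560 CPM in EHE6 replicate 3 and 5651 in EHE17 replicate 3, was the lowest of its line in both, and its part in these values was not tested.

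Over both sets, 12 members (25%, beside 16.8% of all tested genes) were higher in each of the 4 first-set libraries than in all 4 of the second: Efna1, Efna4, Sema3f, Sema3g, Sema4d, Sema6a, Sema7a, Plxnb1, Plxnc1, Plxnd1, Robo1 and Robo4. They include Sema4d and its receptor Plxnb1, and Sema7a and its receptor Plxnc1. Another 4 (8.33%, beside 9.88%) were lower in each first-set library: Ephb6, Sema3a, Sema3d and Sema4b. Among genes at the same minimum level the background shares were 14.4% for higher and 12.1% for lower in the first set. Sema3g and Plxnc1 reached 1 CPM in first-set libraries alone, which fixed their side. The sets were formed from the expression of all genes, members included, and these counts describe them without a test.

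Promoters are shown for Plxnd1, Sema3d and Ephb6, whose levels divided with the sets, for the even Epha2, and for Efnb2, the arterial ephrin, which did neither, since the fusion of EHE acts through TEAD factors and endothelial genes often use ETS factors. Of the 48 described members, 41 had an entry in the RefSeq promoter table (GRCm38.p6), with 52 promoters. The 250 bases before each start were searched on both strands for GGAATG (TEAD), TGANTCA (AP-1) and CCGGAA (ETS). GGAATG and CCGGAA can overlap in the letters GGAA. All promoters shown here hold a match. Of the other members that divided with the sets, Plxnb1, Sema4b and Sema4d hold one too. Efna1, Efna4, Plxnc1, Robo1, Robo4, Sema3a, Sema3g and Sema7a hold none. Capitals mark the matches, bases are 5′ to 3′ along the gene's strand, and a window stops where an annotated exon begins. Plxnd1 (chr6:115995006-115995255, minus strand) and Epha2 (chr4:141300971-141301220, plus strand) have TEAD matches, as does Efnb2 (chr8:8661243-8661492, minus strand), while Ephb6 (chr6:41605261-41605481, plus strand) and Sema3d (chr5:12382916-12383165, plus strand) have ETS matches.
Plxnd1: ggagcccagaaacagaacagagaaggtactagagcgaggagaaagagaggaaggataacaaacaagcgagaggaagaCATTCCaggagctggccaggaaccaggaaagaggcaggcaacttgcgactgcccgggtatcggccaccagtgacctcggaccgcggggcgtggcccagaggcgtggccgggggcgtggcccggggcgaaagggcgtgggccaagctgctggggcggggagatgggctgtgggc
Epha2: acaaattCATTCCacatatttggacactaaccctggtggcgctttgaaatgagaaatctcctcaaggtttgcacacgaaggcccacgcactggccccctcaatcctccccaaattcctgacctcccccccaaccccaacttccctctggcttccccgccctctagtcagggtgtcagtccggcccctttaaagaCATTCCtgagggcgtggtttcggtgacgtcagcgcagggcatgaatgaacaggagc
Efnb2: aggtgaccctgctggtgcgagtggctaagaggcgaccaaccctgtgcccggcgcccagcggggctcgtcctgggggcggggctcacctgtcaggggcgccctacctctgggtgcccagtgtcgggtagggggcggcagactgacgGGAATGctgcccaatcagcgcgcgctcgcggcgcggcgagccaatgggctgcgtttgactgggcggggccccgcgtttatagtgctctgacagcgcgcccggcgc
Ephb6: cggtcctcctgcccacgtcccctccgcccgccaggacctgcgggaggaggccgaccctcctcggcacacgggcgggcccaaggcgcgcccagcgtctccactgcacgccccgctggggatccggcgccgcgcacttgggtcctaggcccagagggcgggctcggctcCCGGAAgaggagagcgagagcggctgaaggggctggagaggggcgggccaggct
Sema3d: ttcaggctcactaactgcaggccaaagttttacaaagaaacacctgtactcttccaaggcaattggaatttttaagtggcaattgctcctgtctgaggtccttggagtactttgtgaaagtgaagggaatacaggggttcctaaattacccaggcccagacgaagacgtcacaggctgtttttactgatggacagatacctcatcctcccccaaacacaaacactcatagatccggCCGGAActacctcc

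In Plxnd1 the TEAD letters begin 173 bases before the start, in Efnb2 105 bases before it, and in Epha2 at 243 and 56 bases. GGAATG was in 5 of the 52 promoters (Efnb2, Epha2, Ntn3, Plxnb1 and Plxnd1), or 9.62%, against 12.6% of all 32851 promoters of the table. Among the 13 promoters of members that were higher in the first set it was in 2, those of Plxnb1 and Plxnd1. CCGGAA was in 6 promoters (Ephb2, Ephb6, Plxnb1, Sema3d, Sema4b and Unc5b), 11.5% against 12% of all, with its first base 83 bases before the start of Ephb6 and 14 before that of Sema3d. Of the 5 promoters of the 4 members that were lower in the first set, 3 held it. TGANTCA was in 3 promoters (Sema4c, Sema4d and Sema6b), 5.77% against 6.75% of all. A match of letters is a description of the sequence, and no binding was measured here.

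Of genes that work with the 4 families, a list of 49 was counted: 16 co-receptors and partner ligands, 2 proteases and 31 cytoplasmic effectors. The list was chosen with earlier results of these data known. All 49 were tested and 45 had at least 1 CPM in 2 libraries. For EHE17 against EHE6, 0 of them were called higher (0.0794% of all genes) and 1 lower (0.0636%), for EHE26 against EHE6 1 higher (1.10%) and 0 lower (0.159%), and for EHE26 against EHE17 1 higher (0.890%) and 0 lower (0.185%). Dpysl3, a cytosolic phosphoprotein of the CRMP family that relays semaphorin signals to the cytoskeleton, was at 294, 261 and 336 CPM in EHE6, 98.4, 109 and 93.9 CPM in EHE17, and 324 and 321 CPM in EHE26. It was lower in EHE17 than in EHE6 at a log2 fold change of -1.56 ± 0.21 (edgeR adjusted p = 0.0444) and higher in EHE26 than in EHE17 at 1.68 ± 0.22 (adjusted p = 0.0166), and no library of EHE17 overlapped the others. Rgma, a membrane-anchored ligand of neogenin, was at 1.62, 1.72 and 3.11 CPM in EHE6, 2.36, 2.39 and 7.70 CPM in EHE17, and 26.1 and 19.4 CPM in EHE26, and rose in EHE26 against EHE6 by a log2 fold change of 3.41 ± 0.63 (edgeR adjusted p = 0.04999, at the threshold).

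Among the co-receptors, the neuropilins and neogenin were read in every library. Nrp1, the co-receptor of Sema3a, was at 260, 406 and 76.2 CPM in EHE6, 185, 104 and 56.5 CPM in EHE17, and 240 and 178 CPM in EHE26, with all 3 lines overlapping. Nrp2, the co-receptor of Sema3f and Sema3g, was at 314, 351 and 41.7 CPM in EHE6, 607, 489 and 589 CPM in EHE17, and 62.8 and 49.3 CPM in EHE26. EHE17 was above all others for Nrp2, and EHE26 against EHE17 had a log2 fold change of -3.32 ± 0.82 (edgeR adjusted p = 0.120). Neo1, which encodes the netrin and RGM receptor neogenin, was at 8.51, 11.6 and 166 CPM in EHE6, 95.6, 59.2 and 388 CPM in EHE17, and 139 and 321 CPM in EHE26, with replicate 3 the highest in both EHE6 and EHE17. The netrin receptors Dcc and Dscam were at 0 to 0.277 and 0 to 0.282 CPM in the 8 libraries, and Dscaml1 was at 0 to 0.653. All were below the level of 1 CPM that the described members had to reach.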

How the data were processed

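Whole-number read counts per Ensembl gene were deposited by the authors for 8 libraries of 3 mouse cell lines, and per the submitters' processing notes the reads were aligned with HISAT2 to mm10. Per the labels' protocols, polyadenylated RNA was extracted with an RNeasy Mini kit and made into libraries with a NEBNext Ultra II kit. The counting tool, its annotation and its strand setting are not given in the sources used here, so reads of overlapping genes cannot be told apart. The 8 tables of single libraries equalled their columns in the joint table. Symbols, positions and exon lengths came from GENCODE M21 (GRCm38), which held 55141 of the 55401 identifiers; at most 0.0181% of a library's reads lay on the others.

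Levels are CPM with TMM factors, and RPKM uses the union of a gene's exons. Counts were fitted in edgeR 4.0.16 (R 4.3.3) with filterByExpr, TMM and the quasi-likelihood test, with line as the term and Benjamini-Hochberg adjustment over 18882 genes. The SE is the log2 fold change divided by the root of F. edgeR put the common biological coefficient of variation at 0.600. Named with test values were members that passed, the 5 higher and 5 lower members with the widest differences in each comparison (mean of at least 1 CPM in the higher line), and 23 members with known roles in vessels. Other members are named by level, some with a test. The members and lists were chosen with earlier results of these data known.

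Alternatives were DESeq2 1.42.0, upper-quartile factors, no filter, a replicate block, a term for the set of libraries, each set alone, the 2 lines compared alone, each library left out, and the longest transcript as the length. After seeing the data, a fit without replicates 3 of EHE6 and EHE17 and a block with EHE17 and EHE6 alone were added. The labels do not say what a replicate number shares. Deviations from the line means correlated between same-numbered EHE6 and EHE17 libraries at 0.13, 0.18 and 0.57, above the 0.1 set for pairing, although replicate 1 of each with replicate 2 of the other gave 0.54 and 0.62. EHE26 gave 0.18 and -0.098 with EHE6 and -0.064 and -0.11 with EHE17, and was not taken as paired.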

Additional observations from a re-analysis of the deposited data

How the results depend on the processing

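The counts of calls depended on the fit, and the cause was not tested. For EHE17 against EHE6, with 0 members and 27 genes of all called by edgeR on the 8 libraries, DESeq2 called 2 members and 393 genes, edgeR without the filter 1 and 142, the set as a term 0 and 102, the first set alone 2 and 102, the second set alone 6 and 787, the 2 lines alone 0 and 7, and the fit without replicates 3 of EHE6 and EHE17 2 and 147. For EHE26 against EHE6, with 0 and 237, these were 17 and 1597 with DESeq2, 5 and 547 without the filter, 3 and 356 with the set as a term, 5 and 601 in the second set, 0 and 131 with the 2 lines alone, and 33 and 4238 without replicates 3. For EHE26 against EHE17, with 0 and 203, they were 20 and 1699 with DESeq2, 7 and 745 without the filter, 4 and 319 with the set as a term, 10 and 828 in the second set, 10 and 790 with the 2 lines alone, and 37 and 4102 without replicates 3. Upper-quartile factors called 0 members in each comparison.

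With the replicate block, edgeR called 0, 11 and 16 members and 33, 1459 and 1860 genes in the same order of comparisons, and with the replicate block and EHE17 and EHE6 alone 0 members and 23 genes. The block called Sema3d, Sema4b, Ephb6 and Unc5b higher and Robo1, Sema3g, Plxnc1, Sema7a, Plxnd1, Ntn1 and Sema3f lower in EHE26 than in EHE6, and Sema3d, Sema4b, Sema3c, Ephb6 and Efnb1 higher and Robo1, Sema6a, Sema3g, Sema7a, Sema4d, Plxnd1, Sema3b, Ntn1, Plxna2, Sema6b and Plxnb1 lower in EHE26 than in EHE17. Only EHE6 and EHE17 passed the level set for pairing, with same-numbered libraries correlated at 0.13, 0.18 and 0.57. Some of their libraries with different numbers correlated at 0.54 and 0.62, so a pairing by replicate number was not shown. The block changed no call of a member between these lines.

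Leaving out each library in turn gave 0 to 1 members and 1 to 53 genes for EHE17 against EHE6, 0 to 17 and 65 to 1625 for EHE26 against EHE6, and 0 to 18 and 2 to 1411 for EHE26 against EHE17. The highest value of each came without EHE6 replicate 3, and without any other single library edgeR called 0 members. Without EHE6 replicate 3, Unc5b was called between EHE17 and EHE6. The calls in EHE26 relative to EHE6 were Sema3d, Sema4b, Ephb6, Unc5b and Sema5a (higher) and Ephb1, Robo1, Slit3, Sema6a, Ephb2, Plxnc1, Robo3, Plxnd1, Robo4, Ntn1, Plxna2 and Ephb4 (lower). Against EHE17 they were Sema3d, Sema3c, Sema5a and Ephb6 (higher) and Ephb1, Robo1, Slit3, Epha7, Ephb2, Robo3, Sema3b, Ntn1, Sema4f, Plxnd1, Robo4, Efna1, Plxna2 and Sema6b (lower).

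Of the values of the 30 named member comparisons under the alternatives, 404 kept their direction and their side of the threshold, 82 kept their direction and passed it, and 13 changed sign. For EHE17 against EHE6, the log2 fold change of Sema3a became -0.078 in the first set and without replicates 3, and ranged from -0.33 (without EHE17 replicate 3) to 1.93 over the single libraries left out, while that of Plxnc1 became 0.10 in the second set. Sema3d became 0.55 with the replicate block, 0.66 with the block and these 2 lines alone, 0.54 with the set as a term, 1.87 in the first set and without replicates 3, and from -2.74 to 2.91 over the single libraries left out, the last without EHE6 replicate 3. For EHE26, Ephb2 became 1.05 against EHE6 in the second set, and Sema3g against EHE17 1.18 with the set as a term and 6.28 in the second set. The longest transcript as the length kept the leading member in 60 of 64 family and library pairs; the other 4 were ephrins in EHE26 replicate 1, semaphorins in EHE17 replicate 2, and Slits in EHE6 replicate 1 and EHE17 replicate 3. Depth limits what can be said of Ephb1, Robo1, Ephb2 and Sema3g, which had 0 to a few reads in some libraries.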
